A study of Mus musculus with 20 samples.

Results

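The comparison set stimulated against untreated mouse cells at 2, 3 and 6 h, and its 6 libraries, 3 per arm, were taken from the 20 of the series by their labels for treatment and time. Stimulated cells received transforming growth factor beta (TGFb), interleukin 4 (IL-4) and lipopolysaccharide (LPS). Untreated cells received none of the 3 agents, and both arms were sampled at the same times. Poly-A messenger RNA was sequenced from material labelled spleen. Per the design text each arm came from 1 mouse, so the effect of treatment and the difference between these animals cannot be told apart. Genotype, strain and age were not in the sources used here. With 1 library per arm and time, the 3 times stood in for replicates and every p-value below measures the spread of the stimulated minus untreated difference between times.

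LPS is a bacterial cell wall component that signals through Toll-like receptor 4 and the adaptor MyD88 to the NF-kB transcription factors, which then also raise their own inhibitors. IL-4 binds a receptor that activates STAT6 through Janus kinases, and TGFb activates SMAD proteins. In mature B cells such signals are known to start antibody class switching and to choose the antibody class made.

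Depth ran from 40720958 to 58622435 counts in the 6 libraries, and 3 counts, taken as the floor of detection, equalled between 0.0514 and 0.0747 CPM (counts per gene scaled to a common library total). Of 12 B cell marker genes 11 were tested, and their summed level was 2142 to 2542 CPM in stimulated and 2468 to 2625 CPM in untreated libraries. Of these markers 1 was higher (Pax5) and 2 were lower (Cd22 and Ms4a1), and Cr2, which marks mature splenic B cells, was at or below 0.123 CPM. Some markers of other spleen cells were near 0 and others were not. The T cell gene Cd3e reached at most 0.0885 CPM, the macrophage genes C1qa and Lyz2 at most 0.0407 and 0.0615 CPM, and the neutrophil genes S100a8 and S100a9 were at 0 in all 6 libraries. T cell markers summed to 67.9 to 86.0 CPM in stimulated and 54.2 to 59.0 CPM in untreated libraries, most of it Cd5, which some B cells also carry. Macrophage markers summed to 69.3 to 247 CPM in stimulated and 82.2 to 285 CPM in untreated libraries, with the stress gene Hmox1, which was lower in the test, between 29.2 and 234 CPM, Csf1r between 19.0 and 27.1 CPM and Cd68 between 15.6 and 20.8 CPM. Natural killer cell markers summed to 9.76 to 16.8 CPM over both arms, nearly all of it Prf1. Dendritic cell markers summed to 120.8 to 125 CPM in stimulated and 96.0 to 113 CPM in untreated libraries, and 1 of 5 tested was higher (Zbtb46, 2.01-fold). Stroma and endothelium markers summed to 141 to 175 CPM against 128 to 134 CPM, most of it Madcam1, and none of 4 tested passed. Plasma cell markers, which B cells share in part, summed to 980 to 1044 CPM against 1117 to 1254 CPM, and 1 of 8 tested was lower (Prdm1). The part of these sums in the results was not tested. The proliferation gene Mki67 was at 723, 706 and 967 CPM in stimulated and 784, 766 and 1180 CPM in untreated libraries at 2, 3 and 6 h. At 0 min it was at 819 and 817 CPM, so cells of both arms carried this transcript before the treatment began. The library names carry a sequencing lane tag, which was 4 for all 3 stimulated libraries, 2 for untreated 2 h and 3 for untreated 3 h and 6 h. Lane and arm cannot be told apart within these 6 libraries.

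Across 12042 genes tested, 1228 were higher (10.2% of those tested) and 1235 lower (10.3%) in stimulated cells (edgeR quasi-likelihood test, Benjamini-Hochberg adjusted p under 0.05). Only 286 (2.38%) were also over 2-fold apart, 135 higher and 151 lower. The median log2 fold change was 0.28 among higher genes, -0.45 among lower genes and 0.01 over all genes tested. In 621 of the 1228 higher and 617 of the 1235 lower genes the 3 stimulated values all lay outside the range of the untreated ones. Among all 12042 genes tested 983 lay above and 937 below. The called genes passed a test on these same values, so non-overlap is not separate support, here or for single genes below. With library totals as the only scaling 669 were higher and 2006 lower, 25.0% higher against 49.9% here, and the median of all genes moved by -0.07. With the 6 libraries alone 1869 genes passed, without the 3 h pair 899 and without the 6 h pair 1321. Relative to the pair of 0 min libraries 43 passed, 23 higher and 20 lower.

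The number of genes over 2-fold apart was highest at 6 h. Among 9463 genes with a mean of at least 5 CPM, 66 were over 2-fold higher in the stimulated library at 2 h, 71 at 3 h and 103 at 6 h. The same counts for lower genes were 21, 36 and 106, while at 0 min there were 1 higher and 0 lower. These compare 1 library with 1 library and have no replicate check. The median log2 ratio of the 1228 higher genes was 0.23, 0.31 and 0.28 at 2, 3 and 6 h, and that of the 1235 lower genes -0.35, -0.44 and -0.50. The ratio rose at both steps in 360 of the higher genes and fell at both in 144, while among lower genes it deepened at both in 445 and shrank at both in 129. These courses were counted only in genes past a test on the same 3 times, and not among all genes tested. Of the 135 genes over 2-fold higher, 81 had a mean more than 1.5-fold above 0 min in the stimulated arm and stayed within that limit in the untreated arm. In 22 the stimulated arm stayed within the limit while the untreated arm went below it. Of the 151 over 2-fold lower, 66 went below 0 min in the stimulated arm only, and in 25 only the untreated arm went above it. Both arms were above the limit in 20 of the higher genes. Among lower genes both were below it in 21 and within it in 31. The 0 min level was the mean of both 0 min libraries. Genes picked for a 2-fold gap tend to leave that level in 1 arm, so these classes are partly fixed by the choice.

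**Figure D1:**
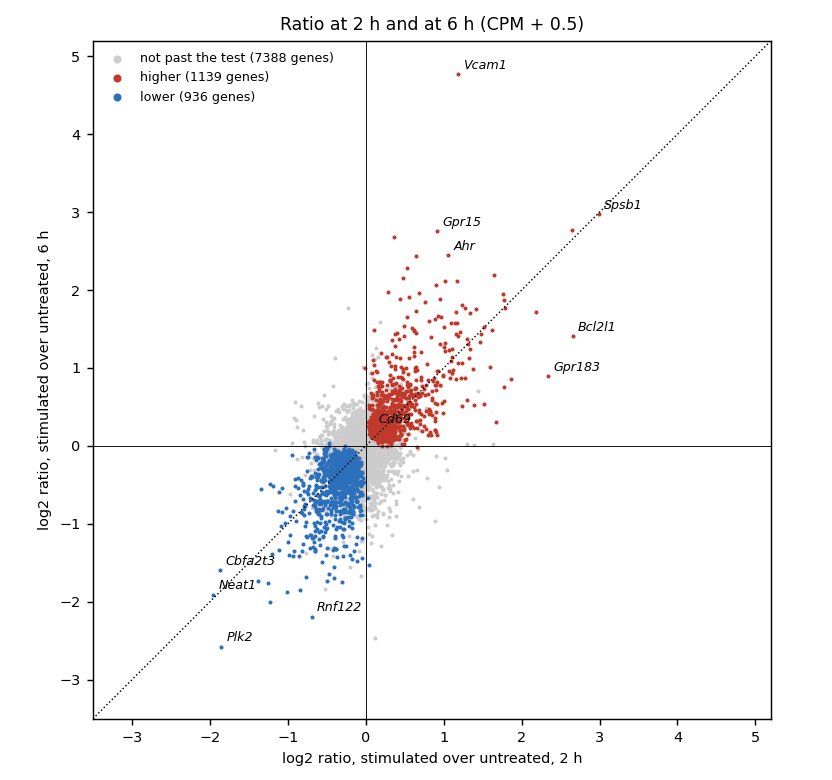
Log2 ratio of stimulated to untreated CPM (each plus 0.5) at 2 h on the x axis and 6 h on the y axis, 1 point per gene with a mean of at least 5 CPM (9463 genes), coloured by the test over 2 to 6 h; the dotted line marks equal ratios. Vcam1 lies far above the line, with 1.18 at 2 h and 4.77 at 6 h, and Gpr183 below it, with 2.34 and 0.90.

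Genes with the largest positive difference coded for adhesion and guidance molecules, survival factors, cytokine signalling proteins and ubiquitin ligase parts. Vcam1 encodes an adhesion molecule that binds integrins and lies on chromosome 3 (chr3:116109949-116129688, GRCm38). It was at 1.06, 2.78 and 29.4 CPM in stimulated libraries at 2, 3 and 6 h, and at 0.188, 0.125 and 0.594 CPM in untreated ones. All 3 stimulated values lay above the untreated ones, and the 6 h library held most of the difference. The fitted fold change was 29.7 (log2 4.89 ± 0.62 SE, adjusted p = 0.00055), and relative to 0 min, where the stimulated library had 0.175 CPM and the untreated one 0, the value was -1.25 (adjusted p = 0.94). Spsb1, a SOCS box adaptor of ubiquitin ligases, was at 20.7, 15.0 and 10.2 CPM against 2.17, 1.57 and 0.861 CPM. Its 10.2-fold difference was thus nearly constant while both arms decreased from 2 to 6 h. Rnf19b, a RING-type ubiquitin ligase, was 6.44-fold higher, with 46.4 to 83.4 CPM in stimulated and 6.35 to 12.9 CPM in untreated libraries.

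Both survival genes among the 15 largest differences were apart at every time. Bcl2l1, which encodes Bcl-xL, was at 276, 248 and 146 CPM in stimulated and 43.5, 60.3 and 54.8 CPM in untreated cells, 4.13-fold higher (log2 2.05 ± 0.29, adjusted p = 0.00093). The arms did not overlap, and the ratio was smallest at 6 h. Cflar, which encodes the caspase-8 inhibitor c-FLIP, was at 95.5, 81.4 and 96.2 CPM against 27.7, 19.4 and 26.0 CPM, 3.77-fold higher (log2 1.92 ± 0.08, adjusted p = 9.7e-07). At 0 min Cflar was at 47.5 and 46.8 CPM, so the stimulated arm lay above and the untreated arm below its start. Of 25 tested genes for survival and death, 7 were higher and 2 lower, while 16 did not pass, against 10.2% higher and 10.3% lower among all genes tested. They had a median log2 fold change of 0.00 (-0.07 with library totals as the only scaling). The Bcl2a1 copies were higher by 2.10- to 2.19-fold, but Bcl2a1a, Bcl2a1b and Bcl2a1d are near-identical and the split of reads between them is uncertain. Bcl2, Mcl1 and Bax, at 0.05, -0.03 and -0.05, did not pass.

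Of the cytokine signalling genes, Stat5a, Il2ra and Traf1 were apart at every time. Stat5a transmits signals of the interleukin 2 family and was at 83.7, 104 and 135 CPM in stimulated and 26.5, 27.1 and 29.3 CPM in untreated libraries. No values overlapped, and it was 3.85-fold higher (log2 1.94 ± 0.09, adjusted p = 9.7e-07). Stat5a overlaps Stat3 on the other strand, and reads in the overlap cannot be assigned where strand was not used in counting. Il2ra, the alpha chain of the interleukin 2 receptor, was at 36.3, 59.1 and 51.0 CPM against 12.7, 15.8 and 18.5 CPM, 3.09-fold higher. Traf1, a signalling adaptor of tumour necrosis factor receptors, was 3.53-fold higher, with 101 to 147 CPM against 29.4 to 40.3 CPM.

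Some of these genes followed different courses. Gpr183, an oxysterol receptor that positions B cells, was at 61.8, 27.4 and 9.36 CPM in stimulated and 11.8, 6.50 and 4.80 CPM in untreated libraries. Its arms overlapped across times although it was higher at each time (3.66-fold, adjusted p = 0.00047). Gpr15, a homing receptor, went the other way, with 14.8, 24.7 and 54.2 CPM against 7.58, 10.1 and 7.58 CPM. Ahr, a ligand-activated transcription factor, was at 245, 254 and 122 CPM in stimulated libraries and at 117, 69.8 and 21.9 CPM in untreated ones. Its growing ratio came with falling levels in the untreated arm. Rnf24, Samsn1, Tagap and Mpzl2 complete the 15, at 3.85-, 3.46-, 3.24- and 3.07-fold higher. Samsn1, an adaptor protein of B cells, had log2 ratios of 1.78, 1.76 and 1.76 at the 3 times, and its arms did not overlap.

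**Figure D2:**
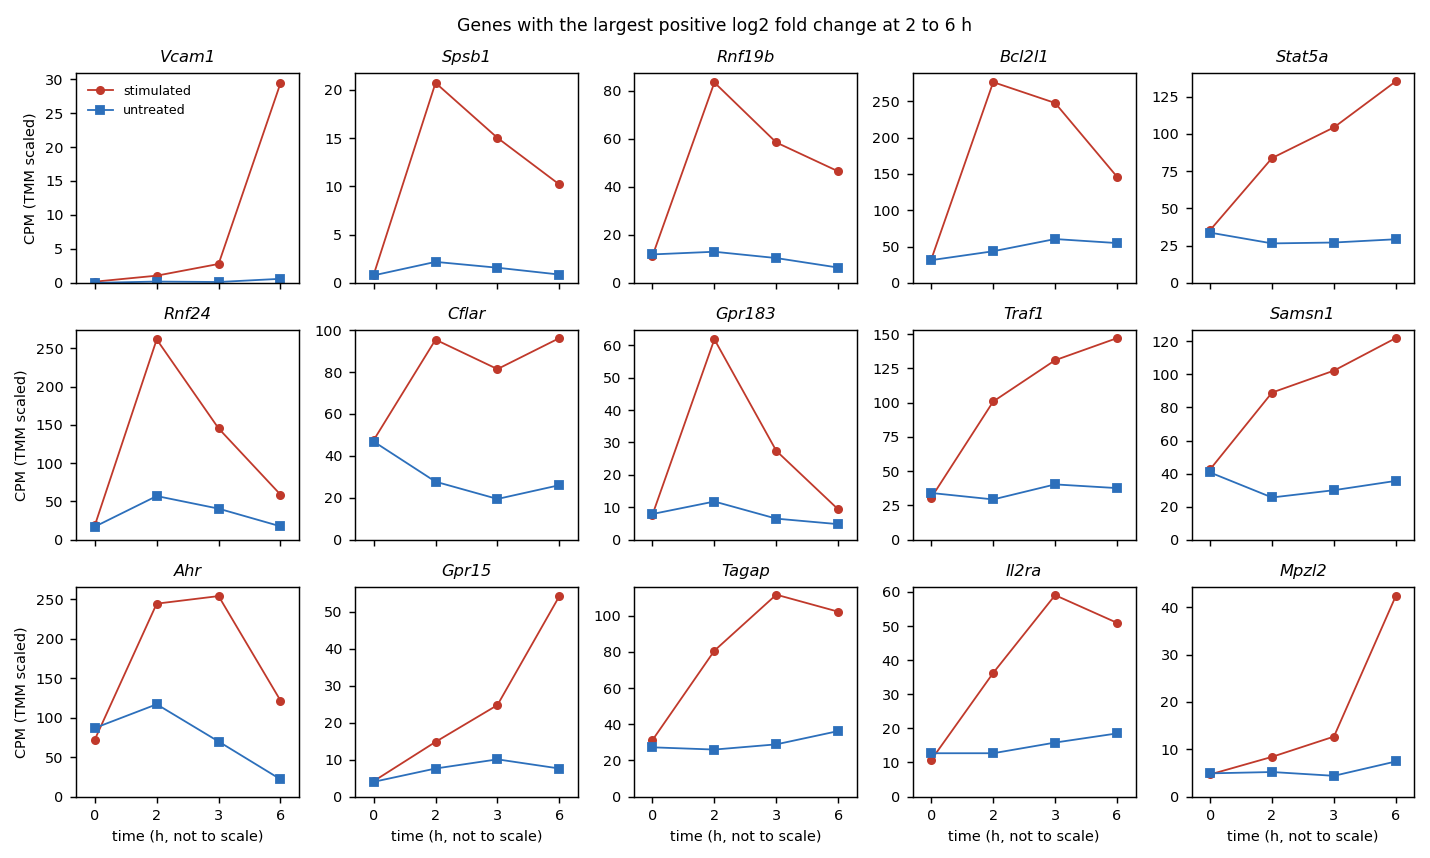
CPM (y axis, linear from 0, 1 panel per gene) at 0, 2, 3 and 6 h (x axis, not to scale) of the 15 named genes with the largest positive log2 fold change, red circles for the stimulated and blue squares for the untreated library. The arms start together at 0 min and are apart at 2 to 6 h, with Vcam1 rising to 29.4 CPM at 6 h and Gpr183 returning to 9.36 CPM.

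Among 20 tested receptors and transducers of the cocktail's signals, 6 were higher and 2 lower, against 10.2% and 10.3% of all genes, while 12 did not pass. Tgfbr1, the signalling TGFb receptor, was at 498, 640 and 290 CPM in stimulated and 359, 282 and 146 CPM in untreated libraries, 1.85-fold higher (log2 0.89 ± 0.14, adjusted p = 0.0016), with values that overlapped across times. Il4ra, the IL-4 receptor chain, was at 79.9, 58.6 and 50.5 CPM against 59.0, 49.0 and 43.8 CPM, a log2 fold change of 0.31 (adjusted p = 0.01). Its call was lost without the 2 h pair (adjusted p = 0.075) and without the 3 h pair (adjusted p = 0.051). Stat6, its transcription factor, was at 0.21 (adjusted p = 0.01, and 0.084 without the 6 h pair or 0.071 with library totals as the only scaling). Tlr4, the LPS receptor, was at only 5.67 to 8.74 CPM in stimulated and 10.0 to 10.8 CPM in untreated libraries and did not pass (log2 -0.56, adjusted p = 0.11), though DESeq2 called it (adjusted p = 0.04). Tgfbr2, at 0.15, did not pass (adjusted p = 0.23). The list's median log2 fold change was 0.01 (-0.07 with library totals as the only scaling). Its counts were 4 higher and 1 lower without any one time, and 4 and 4 with library totals. They were 0 and 0 without pairing by time, relative to 0 min and with lane added to a spline of time. The adaptor Myd88 was 1.57-fold higher and Tirap, which bridges it to the receptor, 1.57-fold lower, and neither overlapped between arms. The LPS co-receptor gene Cd14 had 1 count in the 6 libraries.

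Of 23 tested genes of the NF-kB system 12 were higher, 1 lower and 10 did not pass, against 10.2% and 10.3% of all genes, and the median log2 fold change was 0.33 against 0.01. After Traf1, described above, Nfkbia had the largest difference of the list. Nfkbia, the inhibitor that holds NF-kB in the cytoplasm, was at 527, 519 and 414 CPM in stimulated and 190, 212 and 164 CPM in untreated libraries, 2.59-fold higher (log2 1.37 ± 0.28, adjusted p = 0.0072). Nfkbie, a related inhibitor, was at 332, 277 and 331 CPM against 163, 164 and 142 CPM, and Map3k14, the kinase of the alternative pathway, was 2.19-fold higher. Of the subunits, Nfkb1 was at 668, 728 and 522 CPM against 378, 436 and 383 CPM, and Nfkb2 at 125, 146 and 194 CPM against 80.5, 101 and 96.7 CPM. Neither overlapped. Rela and Rel, the main activating subunits, were at 0.07 and 0.14 and did not pass. Tnfaip3, an ubiquitin-editing inhibitor, was at 197, 220 and 222 CPM against 90.7, 116 and 117 CPM, so its arms did not overlap, but it did not pass (log2 0.99, adjusted p = 0.058). The list had 8 higher members without the 3 h pair, 7 without pairing by time, 1 relative to 0 min and 1 with lane added to a spline of time.

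A search of the 250 bases upstream of RefSeq gene starts (GRCm38.p6, both strands) for the 9-letter NF-kB motif GGGANTTTC found it in 3 of 103 matched genes over 2-fold higher (2.91%). It was in 0 of 67 matched genes over 2-fold lower, in 0.938% of 9167 matched tested genes and in 1.11% of all 27025 genes with such a window. Here and below, shares are of matched genes, which were 103 of 135 higher, 67 of 151 lower and 9167 of 12042 tested. A gene counted if any of its starts held the motif, and the number of starts per gene was not adjusted for. The AP-1 motif TGANTCA was in 18 (17.5%) of the higher and 8 (11.9%) of the lower genes, against 5.23% of tested and 7.82% of all genes. For STAT5, TTCNNNGAA was in 6.8% of the higher, 7.46% of the lower, 6.98% of tested and 8.13% of all genes. The STAT6 motif, TTC and GAA with 4 bases between, was in 4.85%, 4.48%, 5.51% and 6.76%. The SMAD motif GTCTAGAC was in 0.971% of the higher, 0% of the lower, 0.24% of tested and 0.2% of all genes, and the E-box CACGTG in 10.7%, 2.99%, 9.99% and 6.86%. The 3 higher genes with the NF-kB motif are shown on the gene's own strand, 5′ to 3′, with the motif in capitals (GAAAGTCCC is the match read on the opposite strand). Fcer2a, the low-affinity IgE receptor known as an IL-4 target, is shown for its STAT6 match. The Fcer2a and Neurl3 windows lie inside the GENCODE spans of these genes (chr8:3681737-3694175 and chr1:36264597-36274679). They are thus upstream of RefSeq starts within the genes. The Ifngr2 match stands after a STAT6 match that it does not overlap. Nfkbia holds another NF-kB match, GAAATTCCC at -28 from the gene start, which is not shown. A match describes the letters and does not show binding.
Nfkbia, chr12:55492722-55492790, minus strand: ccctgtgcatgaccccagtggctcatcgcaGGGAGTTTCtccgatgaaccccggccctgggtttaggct
Ifngr2, chr16:91546955-91547023, plus strand: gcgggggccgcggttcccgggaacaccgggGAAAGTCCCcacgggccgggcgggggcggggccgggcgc
Neurl3, chr1:36273496-36273564, minus strand: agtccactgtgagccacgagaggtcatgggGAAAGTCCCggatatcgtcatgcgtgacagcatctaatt
Fcer2a, chr8:3690990-3691059, minus strand: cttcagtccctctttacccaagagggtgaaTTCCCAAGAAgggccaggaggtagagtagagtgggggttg

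These 3 genes beside Nfkbia were chosen for the motif after their values were seen. Ifngr2, a chain of the interferon gamma receptor, was at 283, 344 and 450 CPM in stimulated and 127, 131 and 137 CPM in untreated libraries, 2.69-fold higher (log2 1.43 ± 0.12, adjusted p = 6.4e-05). Its arms did not overlap and the ratio grew with time. Neurl3 was at 1.40, 1.55 and 5.22 CPM against 0.770, 0.797 and 1.15 CPM (adjusted p = 0.048) and Fcer2a at 2.38, 3.31 and 5.51 CPM against 1.03, 1.32 and 1.29 CPM (adjusted p = 0.032). Both calls were lost without any one of the 3 times, at adjusted p = 0.34 for Neurl3 and 0.18 for Fcer2a without the 6 h pair.

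Among 17 STAT genes and their feedback regulators, 9 were higher and 3 lower (median 0.31), against 10.2% and 10.3% of all genes tested. The other 5 did not pass, and 5 were higher without the 3 h pair. The list had 3 higher without pairing by time, 1 relative to 0 min, 7 with a spline of time and 1 with lane added to that spline. Cish, a feedback inhibitor induced by STAT5, was at 23.2, 25.7 and 12.4 CPM in stimulated and 14.2, 7.44 and 2.79 CPM in untreated libraries, 2.82-fold higher (adjusted p = 0.0051, and 0.055 without the 3 h pair). Its values overlapped across times. Stat5b, the close relative of Stat5a, was at 100.1, 113 and 150 CPM against 78.9, 76.6 and 65.9 CPM, 1.62-fold higher with no overlap. Stat2, which acts in type I interferon signalling, was 1.36-fold lower.

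TGFb feedback genes and SMAD targets had 9 higher, 0 lower and 9 that did not pass of 18 tested (median 0.34). Of all genes tested 10.2% were higher and 10.3% lower. The list had 4 higher without the 3 h pair and 5 without the 6 h pair. It had 1 higher without pairing by time, 0 relative to 0 min, 3 with a spline of time and 0 with lane added to that spline. Id2, an inhibitor of basic helix-loop-helix factors, was at 119, 69.6 and 77.3 CPM in stimulated and 45.7, 36.7 and 38.9 CPM in untreated libraries, 2.15-fold higher (log2 1.11 ± 0.20, adjusted p = 0.0042). The arms did not overlap. Ski and Skil, which repress SMAD activity, were 1.73- and 1.72-fold higher, and Skil was at adjusted p = 0.059 without the 3 h pair. Ldlrad4, an inhibitor of SMAD activation, was at 11.9, 12.0 and 47.3 CPM against 7.69, 8.74 and 16.3 CPM, with most of its difference at 6 h (log2 0.91, and 0.54 at adjusted p = 0.12 without that pair).

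Surface molecules of activation had the largest median of the lists, 0.70, with 12 higher, 0 lower and 9 that did not pass of 21. Of all genes tested 10.2% were higher and 10.3% lower. Cd86, a ligand of CD28, was at 264, 336 and 305 CPM in stimulated and 105, 112 and 128 CPM in untreated libraries, 2.63-fold higher (log2 1.40 ± 0.09, adjusted p = 2.1e-05). Icosl, the ligand of ICOS, was at 5.53, 5.59 and 22.1 CPM against 2.00, 2.89 and 6.11 CPM, 2.78-fold higher with values that overlapped across times. Fas, the death receptor, was at 18.6, 13.9 and 51.0 CPM against 12.7, 9.41 and 10.1 CPM. It was close in the arms at 2 and 3 h and clearly apart at 6 h. Cd40 and Cd83, named after their values were seen, were 2.05- and 1.77-fold higher. Cd69, known as an early activation marker, was at 0.20 and did not pass. The list had 10 or 11 higher members without any one time, 4 without pairing and 3 relative to 0 min.

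Of 35 cytokines and chemokines 13 were tested. Of these 1 was higher, 1 lower and 11 did not pass, against 10.2% and 10.3% of all genes tested. Tnf, Lta and Ltb, which lie in the H2 complex, were listed at 0 in all 6 libraries and are among those not tested. Ccl22, a chemokine that attracts T cells through CCR4, was the most abundant. It was at 4918, 6103 and 7150 CPM in stimulated and 1954, 2114 and 2187 CPM in untreated libraries, 2.88-fold higher (log2 1.53 ± 0.10, adjusted p = 2.1e-05), and at 1269 CPM at 0 min in the stimulated arm. Both arms thus lay above the start, the stimulated arm further. Il10, an anti-inflammatory cytokine, was at 46.5, 31.7 and 32.5 CPM against 52.5, 62.4 and 89.6 CPM, 1.82-fold lower (adjusted p = 0.029, and 0.14 without the 3 h or 0.19 without the 6 h pair). The arms did not overlap and were close at 2 h.

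Ciita, the master regulator of MHC class II genes, was at 254, 290 and 425 CPM in stimulated and 102, 116 and 171 CPM in untreated libraries, 2.50-fold higher (log2 1.32 ± 0.12, adjusted p = 7.4e-05), with no overlap. Nlrc5, the class I counterpart, was 1.27-fold lower (adjusted p = 0.017, and 0.14 without the 3 h pair). Of 20 antigen presentation genes only 5 were tested, 2 higher, 1 lower and 2 not past the test, against 10.2% and 10.3% of all genes. Cd74 was the other higher gene, at a log2 fold change of 0.21 and an adjusted p of 0.046 that was not kept without any one time (0.12, 0.12 and 0.24). Class I and class II genes of the H2 locus, Tap1, Tapbp and Psmb8 were listed at 0 or near it in all 6 libraries (at most 0.0885 CPM, for H2-Eb1 and H2-K1) while Cd74 stood at 2000 to 2526 CPM. A listing at 0 in these tables was not taken as absence of the transcript, and its cause was not tested.

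Migration genes were mixed, with 9 higher, 4 lower and 15 that did not pass of 28, against 10.2% and 10.3% of all genes tested. Their median was 0.02, or -0.06 with library totals as the only scaling. S1pr3, a sphingosine phosphate receptor, was at 113, 83.0 and 82.6 CPM in stimulated and 42.0, 27.2 and 24.2 CPM in untreated libraries, 3.04-fold higher (log2 1.61 ± 0.22, adjusted p = 0.00079). Its relatives S1pr1, needed for exit from lymphoid organs, and S1pr2, which keeps B cells in germinal centres, were 1.75- and 1.69-fold lower. None of the 3 overlapped between arms. The chemokine receptors Cxcr4 and Cxcr5 were 1.85- and 1.81-fold higher, also without overlap. S1pr1, S1pr2, Cxcr4 and Cxcr5 were named after their values were seen.

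The largest negative differences were in Plk2, Cbfa2t3, Neat1, Ahnak2 and Rnf122. Plk2, a stress-induced kinase on chromosome 13 (chr13:110395046-110400844), was at 366 and 360 CPM at 0 min. It was at 31.1, 26.7 and 8.28 CPM in stimulated and 114, 98.6 and 51.9 CPM in untreated libraries, 4.28-fold lower (log2 -2.10 ± 0.20, adjusted p = 0.00012). Both arms lay well below 0 min, the stimulated arm further, and did not overlap. Cbfa2t3, a transcriptional corepressor, was at 4.76, 2.49 and 10.6 CPM against 18.7, 18.6 and 32.9 CPM, also 4.28-fold lower. Btg2, an antiproliferative gene, was at 17.8, 18.1 and 20.7 CPM against 41.5, 47.4 and 54.9 CPM after 146 and 149 CPM at 0 min, 2.52-fold lower. Its difference had the opposite sign at 15 min to 1 h, 0.81 (adjusted p = 0.0088).

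Neat1, the long noncoding RNA that builds paraspeckles (chr19:5824708-5845478), showed another pattern. It was at 61.1 and 68.7 CPM at 0 min, and then at 164, 203 and 132 CPM in stimulated and 636, 676 and 498 CPM in untreated libraries. The untreated arm thus lay far above its start and the stimulated arm less far, a 3.64-fold difference (log2 -1.86 ± 0.11, adjusted p = 5.7e-06) with no overlap. Malat1 and Leng8, other transcripts retained in the nucleus, were 2.02- and 1.81-fold lower, and Kcnq1ot1 1.57-fold lower (adjusted p = 0.063 without the 6 h pair). Of 9 tested members of this list 0 were higher and 4 lower, against 10.2% and 10.3% of all genes tested. The paraspeckle proteins Sfpq and Nono, at -0.05 and 0.06, did not pass. The list sum was 2965 to 3023 CPM in stimulated and 3615 to 3663 CPM in untreated libraries. RNA quality was not measured otherwise, and its part in the other results was not tested.

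Of 27 tested genes typical of resting lymphocytes 17 were lower and 3 higher, against 10.3% and 10.2% of all genes tested. Another 7 did not pass, and the median was -0.39. Hhex, a homeobox transcription factor, was at 15.6, 17.3 and 10.1 CPM in stimulated and 37.2, 34.6 and 41.7 CPM in untreated libraries, 2.68-fold lower (log2 -1.42 ± 0.18, adjusted p = 0.00051), and its arms did not overlap. Cdkn1b, which encodes the cell cycle inhibitor p27, was 1.59-fold lower, and Foxo1, a transcription factor of quiescence, 1.30-fold lower. The 3 higher members were Btg1, Tcf7 and Lef1. Lef1, a partner of beta-catenin, was at 7.13, 6.34 and 14.7 CPM against 2.86, 3.11 and 5.19 CPM, 2.46-fold higher. Tcf7, related to Lef1, was 2.06-fold higher but at adjusted p = 0.059 without the 3 h and 0.1 without the 6 h pair. Cdkn1b, Foxo1, Btg1, Tcf7 and Lef1 were named after their values were seen.

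Of the remaining large negative differences, Ahnak2, Rnf122, Prr33, Gpr34 and Il10ra were 3.29-, 3.11-, 2.33-, 2.22- and 2.17-fold lower, each without overlap between arms. Rnf122, a RING-type ubiquitin ligase, was at 4.02, 1.67 and 3.37 CPM in stimulated and 6.83, 5.98 and 17.2 CPM in untreated libraries. Its ratio widened at each time. Il10ra, the ligand-binding chain of the interleukin 10 receptor, was at 4.37, 3.28 and 4.69 CPM against 8.59, 8.51 and 9.59 CPM. Prob1, Tbc1d21, Sh2d3c and St8sia4 were lower by 2.08- to 2.15-fold, lower at each time but with values that overlapped across times.

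**Figure D3:**
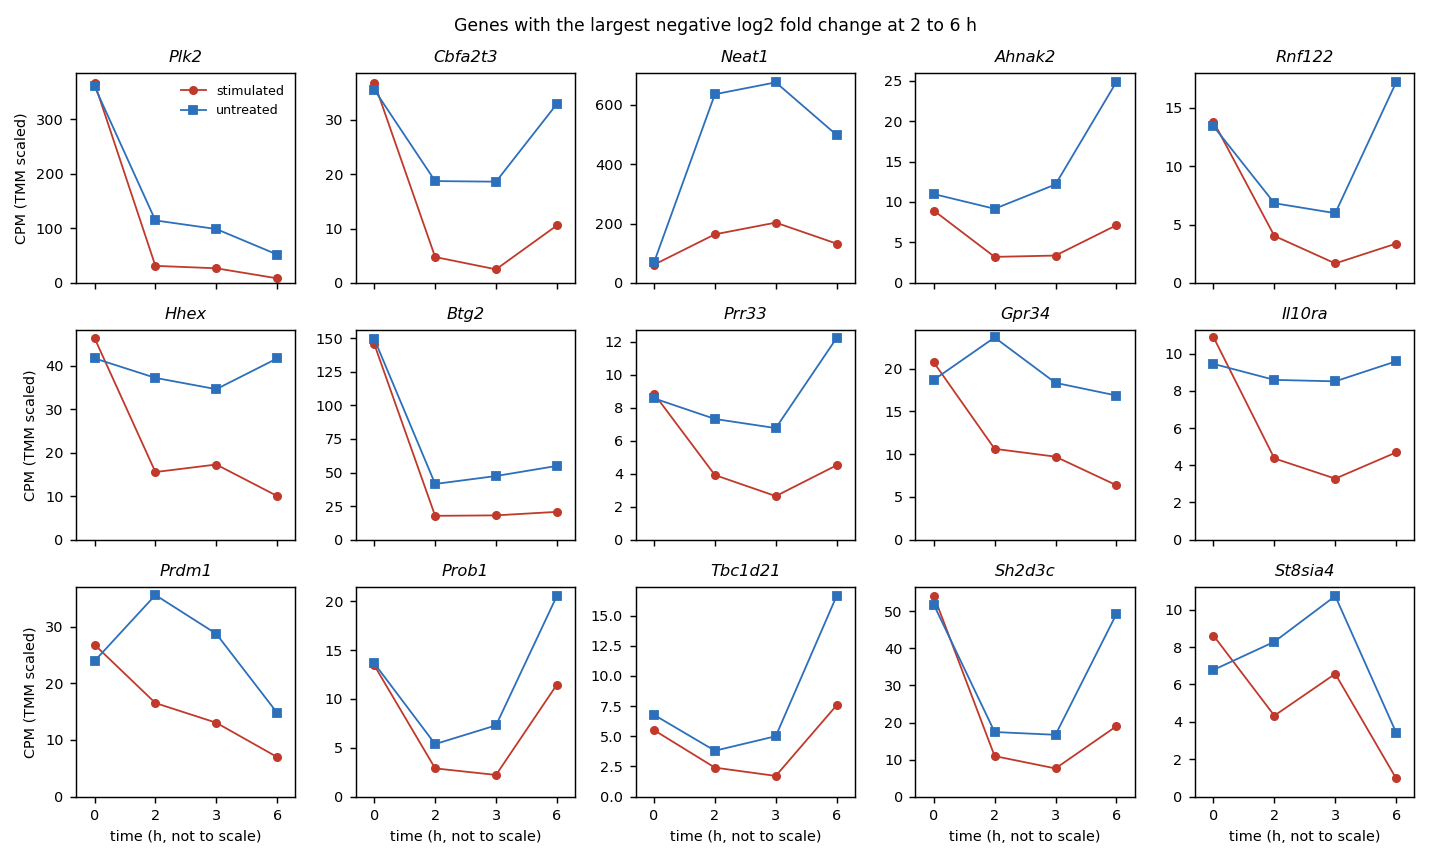
CPM (y axis, linear from 0, 1 panel per gene) at 0, 2, 3 and 6 h (x axis, not to scale) of the 15 named genes with the largest negative log2 fold change, red circles for the stimulated and blue squares for the untreated library. Plk2 and Btg2 drop in both arms from 366 and 146 CPM in the stimulated 0 min sample, while Neat1 climbs to 676 CPM in the untreated arm at 3 h.

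Genes of the B cell receptor and its co-receptors had 10 lower, 2 higher and 13 that did not pass of 25 (median -0.15). Of all genes tested 10.3% were lower and 10.2% higher. The list had 3 lower without the 3 h and 4 without the 6 h pair. Cd22, an inhibitory co-receptor, was at 366, 246 and 90.6 CPM in stimulated and 435, 331 and 222 CPM in untreated libraries, 1.56-fold lower (adjusted p = 0.029, and 0.073 without the 3 h or 0.17 without the 6 h pair). Siglecg, another inhibitory lectin, was 1.44-fold lower, and Syk, the proximal kinase, 1.35-fold lower (adjusted p = 0.087 without the 3 h and 0.12 without the 6 h pair). Cd5, an inhibitor of receptor signalling, was 1.54-fold higher without overlap. The receptor chains Cd79a and Cd79b, at -0.01 and -0.02, did not pass. In bulk RNA a lower level cannot be told apart from fewer cells that carry the transcript.

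Transcription factors of B and plasma cells included 4 higher and 5 lower of 25 (median -0.13), against 10.2% and 10.3% of all genes tested. Without the 2 h or the 3 h pair 2 were higher. Prdm1, which encodes Blimp-1, the driver of plasma cell fate, was at 16.5, 13.0 and 6.97 CPM in stimulated and 35.6, 28.8 and 14.8 CPM in untreated libraries, 2.15-fold lower (log2 -1.11 ± 0.13, adjusted p = 0.00036). Its log2 ratio was between -1.11 and -1.03 at each time, although values overlapped across times. Irf4, needed for both class switching and plasma cells, was at 761, 545 and 528 CPM against 340, 309 and 292 CPM, 1.93-fold higher (adjusted p = 0.0023). Nfil3, which acts in IgE class switching, was at 105, 92.2 and 56.8 CPM against 55.3, 37.2 and 17.5 CPM, 2.47-fold higher.

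Among 33 tested genes of class switch recombination 3 were higher, 3 lower and 27 did not pass, shares of the size found among all genes tested, and 1 was higher and 1 lower without any one time. Lig4, the ligase of end joining, was 1.77-fold lower, with 8.72 to 9.56 CPM in stimulated and 13.0 to 22.2 CPM in untreated libraries. Batf and Apex1 were 1.40- and 1.19-fold higher and Hoxc4 1.36-fold lower, of which Batf and Hoxc4 were not kept without any one time (adjusted p = 0.2 and 0.24 without the 6 h pair).

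Growth genes were shifted by small amounts. Among all genes tested 10.2% were higher and 10.3% lower. The ribosome biogenesis list held 24 higher members, 0 lower and 18 not past the test, of 42 (median 0.19), but 9, 5 and 12 were higher without the 2, 3 and 6 h pair, 10 with library totals as the only scaling and 0 without pairing. Rrp1b, Rrp9, Nop16 and Nhp2 led, at 1.28-, 1.27-, 1.22- and 1.21-fold. Nucleotide synthesis had 7 higher and 0 lower of 31 (3 higher without the 3 h and 4 without the 6 h pair), led by Prps1 at 1.25-fold. Of 25 Myc network genes 8 were higher and 2 lower (4, 2 and 3 higher without the 2, 3 and 6 h pair), while Myc itself, at 0.22, did not pass. Ccnd2, a cyclin of the G1 phase, stood apart from these small changes, at 97.4, 86.8 and 89.1 CPM in stimulated and 49.9, 38.8 and 23.8 CPM in untreated libraries, 2.53-fold higher (log2 1.34 ± 0.16, adjusted p = 0.00042). Its kinase partner Cdk6 was 1.60-fold higher without overlap. The cell cycle list held 4 higher and 2 lower of 38 (median 0.02). Its higher share was near that of all genes tested and its lower share below it. Besides Ccnd2 and Cdk6 the higher members were Ccnd1, another G1 cyclin, at 1.55-fold, and Cdc25a, a phosphatase that activates cyclin-dependent kinases, at 1.18-fold (adjusted p = 0.013, and 0.098 without the 3 h or 0.06 without the 6 h pair). The lower ones were Cdkn1b and the transcription factor gene E2f2, 1.53-fold lower. Cdc25a and E2f2 were named after their values were seen. Mki67 (-0.17, adjusted p = 0.061) and Top2a (0.04) did not pass.

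Of 25 immediate early genes 5 were higher and 1 lower (2 higher without the 3 h pair), against 10.2% and 10.3% of all genes tested. Junb, an AP-1 subunit, was at 168, 136 and 154 CPM in stimulated and 72.3, 70.9 and 55.8 CPM in untreated libraries, 2.32-fold higher (log2 1.21 ± 0.19, adjusted p = 0.002), with no overlap. Fos, Jun and Egr1 were at -0.41, -0.56 and -0.38 and did not pass. Glycolysis and hypoxia genes had 6 higher and 2 lower of 28 (2 and 0 without the 3 h and without the 6 h pair), p53 targets 3 and 5 of 23, and unfolded protein response genes 1 and 5 of 26. Cholesterol synthesis with 2 and 1 of 33, amino acid supply with 1 and 2 of 29 and heat shock chaperones with 1 and 0 of 19 had smaller shares called in each direction than all genes tested. Without any one time the higher members of the last 5 lists numbered 0 to 2.

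**Figure D4:**
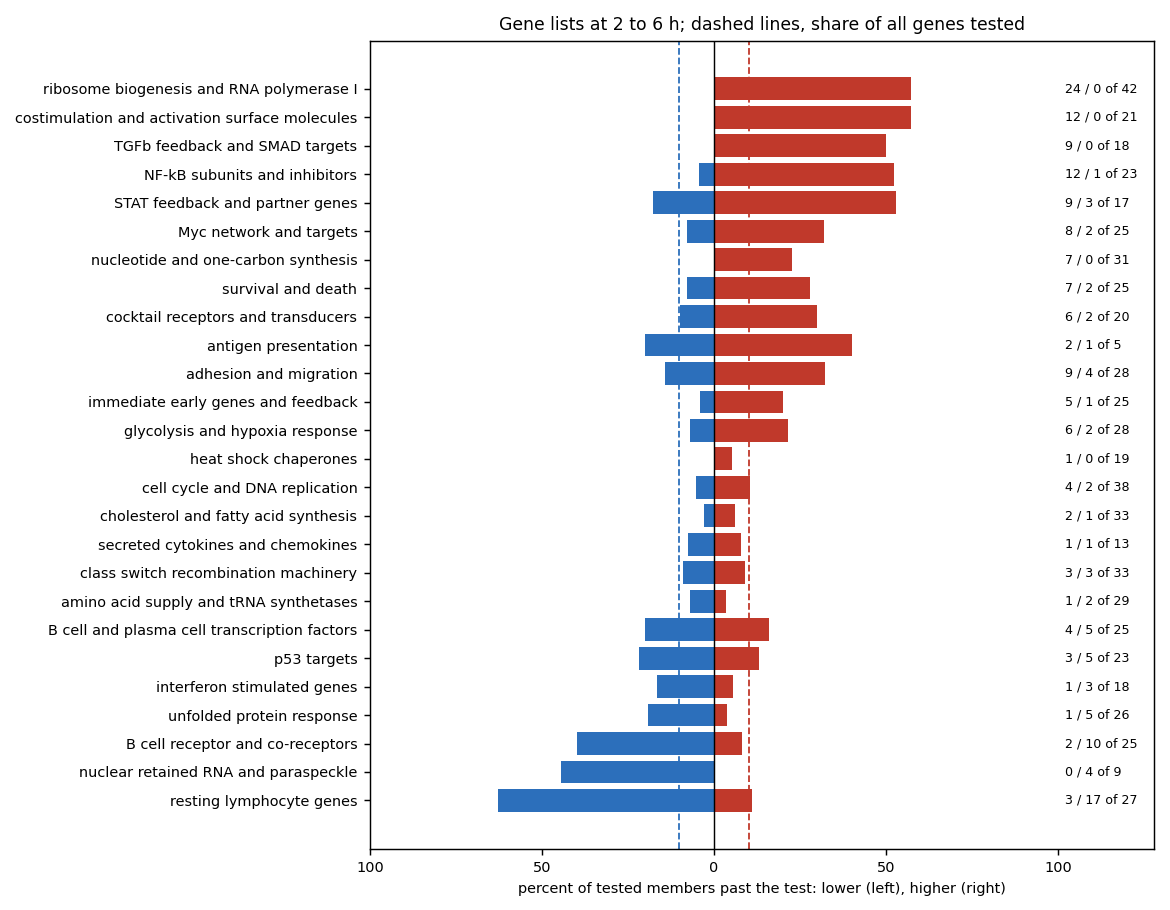
Percent of tested members of 26 gene lists that were higher (red, right) or lower (blue, left) in stimulated cells at 2 to 6 h; dashed lines mark 10.2% and 10.3% of all genes tested, and the text at the right gives higher / lower of tested members. Activation surface molecules, NF-kB, STAT, TGFb and ribosome biogenesis lists lie far to the right, and resting lymphocyte genes with 17 of 27 lie far to the left.

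Against the neighbouring phases, the difference between arms at 2 to 6 h differed from that at 15 min to 1 h in 769 genes (6.39% of those tested) and from that at 12 to 48 h in 812 (6.74%). Of the 2463 genes past the test at 2 to 6 h, 645 also differed from the early phase, in the same direction. In 151 the difference was significantly larger in the same direction at 12 to 48 h, and in 121 smaller or opposite. The 2463 genes were picked by their 2 to 6 h difference, which is part of both contrasts. These counts of direction are therefore partly fixed by that choice. Il2ra was at -0.05 early, 1.63 at 2 to 6 h and 0.64 late. Stat5a and Cflar were at 1.94 and 1.92 and then at 1.83 and 1.99 late, whereas Gpr15 went from 1.71 to 4.25 and Fas from 1.17 to 3.65. With lane tag as a term, the 2 counts were 241 and 44.

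**Figure D5:**
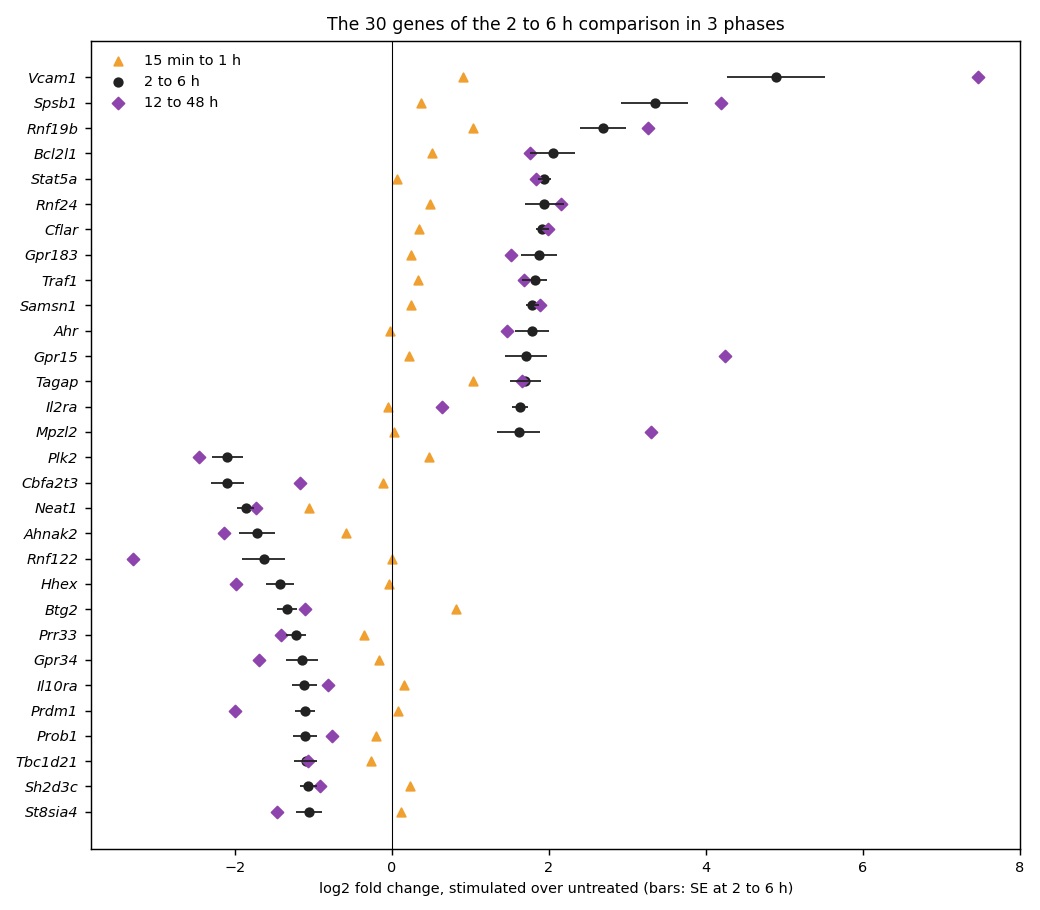
Log2 fold change (x axis, stimulated over untreated) of the 30 named genes (y axis) at 15 min to 1 h (triangles), 2 to 6 h (circles with SE bars, 3 times per arm) and 12 to 48 h (diamonds). The SE rests on a spread estimated over the 18 libraries after 0 min. Most triangles lie near 0, while Gpr15 and Mpzl2 have late values of 4.25 and 3.30, above the 1.71 and 1.62 of 2 to 6 h.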

How the data were processed

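Poly-A libraries (TruSeq, per the labels' protocols) were deposited as raw counts per gene, 1 table per library with 41115 genes. Per the submitters' processing notes the authors used STAR and HTSeq with GRCm38.p3 (mm10). Versions and the strand setting were not in the sources used here, so genes that overlap another on the opposite strand in GENCODE (of the 30 leading genes Vcam1, Spsb1, Stat5a, Rnf24, Gpr183, Samsn1, Ahr, Gpr15, Tagap, Mpzl2, Cbfa2t3, Prr33, Gpr34, Il10ra and Sh2d3c, and of others Il4ra, Stat6, Cish, Myd88, Tirap, Nfkb2, Ciita, Junb, Cd22, S1pr3, Cxcr5, Ldlrad4, Ccnd2, Cdk6, Malat1, Leng8, Lef1, Tcf7, Apex1, Bcl2a1d, Ccnd1, Foxo1, Gnaz, Hapln1, Jun, Kcnq1ot1, Ms4a1, Nhp2, Nlrc5, Pax5, Pdzd2, Rrp1b, Rrp9, Stat3 and Zfp36) are uncertain.

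Counts were compared with edgeR 4.0.16 under R 4.3.3 (TMM scaling, quasi-likelihood test, Benjamini-Hochberg adjustment, threshold 0.05) on genes that reached 1 CPM in 3 or more of the 18 libraries after 0 min. Time was a factor and treatment had 1 term per phase, leaving 6 residual degrees of freedom. The SE was the log2 fold change divided by the square root of F, and single-time ratios used CPM plus 0.5. The script was tested on simulated counts that held no time, animal or lane effect, so that test does not bear on these effects. Alternatives included DESeq2 1.42.0 and limma 3.58.1 (voom).

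The genes named are the 15 largest differences in each direction (same sign at all 3 times, mean of at least 5 CPM, no unnamed gene models or antigen receptor segments), up to 4 per gene list, 5 per direction for each difference between phases, and Tlr4, Il4ra, Stat6, Tgfbr1 and Tgfbr2. Some genes the rule names are not reported here. Others were named after their values were seen. The comparison, lists and rule were chosen with earlier results of these data known. Positions came from GENCODE vM21 and promoters from RefSeq.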

Additional observations from a re-analysis of the deposited data

Results flagged for a closer look

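The difference between arms at 2 to 6 h differed from that at 15 min to 1 h in 769 genes, by an interaction term across the phases in edgeR (adjusted p under 0.05). Among named genes the 5 largest positive changes since the early phase were in Spsb1 (2.97 on the log2 scale), Stat5a (1.87), Ahr (1.81), Il2ra (1.68) and Rnf19b (1.66). The 5 largest negative ones were in Jun (-3.03), Plk2 (-2.57), Zfp36 (-2.22), Btg2 (-2.15) and Cbfa2t3 (-1.98). Jun and Zfp36, an AP-1 subunit and a regulator of messenger RNA decay, were higher at 15 min to 1 h (2.48 and 1.92) and at -0.56 and -0.31, not past the test, at 2 to 6 h.

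The difference at 12 to 48 h differed from that at 2 to 6 h in 812 genes by the same kind of test. It was larger in the positive direction for Susd2 (2.97), Gnaz (2.54), Gpr15 (2.54), Il9r (2.49) and Fas (2.48), and in the negative direction for Pde2a (-2.45), Hapln1 (-2.41), Pdzd2 (-2.36), Pik3cg (-2.32) and Camk2n1 (-2.21). For Fas, Susd2, Il9r and Pik3cg the 6 h library already held the later direction, with log2 ratios of 2.28, 2.69, 1.59 and -0.78 at 6 h against 0.53, 0.36, 0.18 and 0.11 at 2 h. The lane tags differ between phases as well as arms, and their part was not tested for single genes.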

How the results depend on the processing

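Of the 2463 genes past the test, 2414 remained with DESeq2's size factors in edgeR, 2228 with DESeq2 and 2360 with limma-voom. All 30 genes with the largest differences stayed past the threshold under these, other filters, library totals, the 6 libraries alone and without any one time. Without pairing by time 247 genes passed (140 higher, 107 lower), 43 relative to the pair of 0 min libraries (23 and 20), with a spline of time 974 (481 and 493), and with a spline and lane, chosen after seeing the data, 43 (29 and 14). Of the 30 genes, 19, 8, 26 and 8 passed under these 4. Library totals as the only scaling gave 669 higher and 2006 lower. Leaving out 1 time gave 899 to 1699 genes, 421 to 762 higher and 478 to 937 lower, the fewest without 3 h. Over 2-fold genes numbered 286, and 473 without a filter, 148 with 5 CPM in 3 libraries, 112 without pairing, 166 without 6 h, 24 relative to 0 min and 35 with a spline and lane. The difference from 15 min to 1 h held 1401 genes without a filter, 165 to 695 with a time left out and 241 with lane, and that to 12 to 48 h 1631, 194 to 1297 and 44. Directions turned for Vcam1 (-1.25) and Tgfbr2 (-0.014) relative to 0 min, Pik3cg with a spline and lane (0.40), and Camk2n1 without pairing (0.016). No gene list had more than 3 higher or 2 lower members relative to 0 min. Leaving out 1 time gave -0.33 to 0.10 for Pik3cg and -0.39 to 0.19 for Camk2n1, positive without 6 h. The causes were not tested. A lane term beside time could not be fitted for the treatment effect at 2 to 6 h. The arms were paired by time in the reported fit, and the labels give no replicate numbers for another block. Genes under the filter, such as Cd14 with 1 count in the 6 libraries, could not be tested at this depth.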
